A study of Mus musculus with 11 samples.

Results

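The 10 genes described here encode histone-modifying enzymes of the Trithorax group and their close partners: the methyltransferases Kmt2a (MLL1), Kmt2b, Kmt2c, Kmt2d, Setd1a and Setd1b, the acetyltransferase Kat6a (MOZ), the H3K27 demethylases Kdm6a (UTX) and Kdm6b (JMJD3), and menin, encoded by Men1. They were taken by gene symbol from an RNA-seq count table of mouse LSKs (Lin-Sca1+Kit+ bone marrow cells, a fraction that holds hematopoietic stem cells and multipotent progenitors), in which all 10 were found among 12647 genes. The p53+/+ mice were described in the study's methods as carrying a humanized p53 knock-in allele, p53R248W/+ mice carried 1 such allele with the R248W substitution, and p53-/- mice lacked p53. All 3 genotypes were on a C57BL/6 background, the mice were described as young, no treatment was named, and each genotype had 3 libraries, 9 in all. The labels do not say whether each library came from a separate mouse or from pooled mice, so p-values measure only the spread between these libraries, which may be technical.

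KMT2 and SETD1 enzymes are the catalytic subunits of COMPASS complexes, which place methyl groups on lysine 4 of histone H3. MLL1 and its relative encoded by Kmt2b act with menin at the promoters of genes such as the Hox clusters, the enzymes encoded by Kmt2c and Kmt2d act mainly at enhancers, and SETD1A and SETD1B place most of the trimethyl mark at active promoters. Kdm6a and Kdm6b encode enzymes that remove the repressive H3K27me3 mark of Polycomb repressive complex 2, and MOZ acetylates histone H3. MLL1, menin and MOZ are known for maintaining hematopoietic stem cells and for sustaining Hoxa9 and Meis1 expression in leukemia. MLL and MOZ genes have been described as targets of mutant p53 in human cancer cells, and the comparison of p53R248W/+ with p53+/+ and p53-/- LSKs asks whether these transcripts differ with p53 genotype in hematopoietic stem and progenitor cells.

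The genes lie on 8 chromosomes of the mm10 (GRCm38) assembly. Kmt2a occupies chr9:44803355-44881352 on the minus strand, Kmt2c chr5:25271795-25498855 on the minus strand, Kat6a chr8:22859442-22943259 on the plus strand, and Setd1a chr7:127777389-127800122 on the plus strand. Kdm6a is X-linked, at chrX:18160862-18279936, and has a Y-linked relative, Uty. Promoter windows of 300 bases, from 250 bases before to 50 bases after the annotated start, were matched in RefSeq (GRCm38.p6) for 6 of the 10 genes. Kmt2b, Kat6a, Kdm6b and Setd1b had no entry. The windows of the 3 matched genes with the lowest unadjusted p-value or the closest link to the study's question are shown here, 5′ to 3′ on the strand of the gene, with each CpG dinucleotide in capitals. They lie at chr9:44881240-44881539 (Kmt2a), chr5:25498734-25499033 (Kmt2c) and chr7:127777139-127777438 (Setd1a).
Kmt2a: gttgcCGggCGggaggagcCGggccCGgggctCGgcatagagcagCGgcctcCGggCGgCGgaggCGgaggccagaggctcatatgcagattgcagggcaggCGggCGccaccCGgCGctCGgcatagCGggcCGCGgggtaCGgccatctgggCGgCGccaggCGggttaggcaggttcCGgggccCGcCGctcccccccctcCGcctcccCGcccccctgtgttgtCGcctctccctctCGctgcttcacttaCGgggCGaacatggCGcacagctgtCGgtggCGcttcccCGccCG
Kmt2c: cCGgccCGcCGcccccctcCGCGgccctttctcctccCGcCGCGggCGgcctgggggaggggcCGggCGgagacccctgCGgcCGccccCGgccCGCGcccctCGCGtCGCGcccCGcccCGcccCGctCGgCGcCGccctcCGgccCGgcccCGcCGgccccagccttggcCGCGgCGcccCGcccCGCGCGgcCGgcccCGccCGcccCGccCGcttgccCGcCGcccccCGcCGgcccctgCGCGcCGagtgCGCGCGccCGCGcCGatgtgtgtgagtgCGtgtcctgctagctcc
Setd1a: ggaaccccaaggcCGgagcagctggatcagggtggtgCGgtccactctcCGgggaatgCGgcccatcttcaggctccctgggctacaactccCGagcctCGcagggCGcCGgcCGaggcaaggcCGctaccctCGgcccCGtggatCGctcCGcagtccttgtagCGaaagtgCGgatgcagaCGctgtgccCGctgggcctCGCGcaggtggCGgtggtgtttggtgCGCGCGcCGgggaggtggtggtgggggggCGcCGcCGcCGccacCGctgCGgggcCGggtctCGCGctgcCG
These windows held 36, 56 and 35 CpG dinucleotides. The windows of Kmt2d and Kdm6a held 27 and 21, and the 3 windows of Men1, which has several annotated starts, held from 11 to 16, beside a median of 7 over 32851 promoter windows of the same length. The p53 half-site consensus motif, searched on both strands, was found in 0 of the 8 windows of these genes and in 8.36% of all windows. That result says only that these letters are not in these windows.

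The libraries held from 18021375 to 29750702 counts (median 20116602). All 9 LSK markers, among them Kit and Ly6a (Sca1), were detected, with a summed level from 3370.8 to 4397.8 CPM (read counts scaled to a common library size with TMM factors) in p53+/+, from 3625.5 to 4247.8 in p53R248W/+ and from 4467.8 to 5020.6 in p53-/- libraries. Reads on Trp53 itself were present in all libraries: 124.5, 206.8 and 376.2 CPM in p53+/+, 218.7, 240.5 and 235.2 in p53R248W/+, and 128.9, 126.5 and 112.1 in p53-/- LSKs, and the count table does not say which exons those reads cover. Cdkn1a, the p53 target that encodes p21, was at 67.0, 44.0 and 43.6 CPM in p53+/+, 52.1, 37.7 and 35.7 in p53R248W/+, and 17.8, 8.27 and 10.9 in p53-/- LSKs, lower in p53-/- than in p53+/+ by 2.07 on the log2 scale (adjusted p = 0.00914, edgeR's quasi-likelihood test with Benjamini-Hochberg adjustment). The Y-linked genes summed to 69.8 to 184.5 CPM in the second p53+/+ and the second and the third p53R248W/+ libraries and to at most 0.216 CPM in the other 6, which are all p53-/- libraries, the first and the third p53+/+ and the first p53R248W/+ library. Y-linked transcripts and genotype are therefore partly confounded, and a fit with their level as a covariate is given beside the values that it moved. Of the 3 libraries with Y-linked transcripts, the second p53+/+ and the second p53R248W/+ also held Xist, at 64.95 and 149.3 CPM, and the third p53R248W/+ library held 6.26 CPM, beside 116.2 to 283.4 CPM in the other 6. Neutrophil and monocyte genes (7 of 8 listed were in the table) summed to 1950.6 to 5597.2 CPM in p53+/+, 3500.7 to 7615.7 in p53R248W/+ and 1386.3 to 1633.4 in p53-/- libraries. Mpo had the highest level of the 7 in every library. S100a8, S100a9 and Ltf were at 798.9, 674.0 and 559.3 CPM in the second p53+/+ and 548.2, 469.7 and 311.6 in the second p53R248W/+ library. Elsewhere they were at most at 44.3 CPM. Elane was highest in the second p53-/- library, at 384.2 CPM. The bracketed names in the library titles have 1 form for all p53-/- libraries. In p53+/+ and p53R248W/+ they have a different form for each of the 3 library numbers, shared between the 2 genotypes, and whether these forms mark separate handling is not stated.

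Per base of transcript, Men1 had the highest level of the 10 genes and Setd1b the lowest. The mean over the 9 libraries was 45.1 RPKM (CPM divided by the deposited gene length in kilobases) for Men1, which stood at percentile 80.4 of all genes tested, and 11.2 RPKM for Kdm6a, at percentile 50.2. The other 8 were low, from 3.44 RPKM for Kmt2d, 3.31 for Kat6a, 2.75 for Kmt2c and 2.74 for Kmt2a to 1.83 for Kdm6b, 1.68 for Setd1a, 1.62 for Kmt2b and 1.01 for Setd1b, which stood at percentile 11.8. The ranges over libraries of Kmt2d, Kat6a, Kmt2c and Kmt2a overlapped (up to 4.71, from 1.47 to 5.08, from 0.980 to 4.31 and from 1.59 to 4.76 RPKM), and so did those of Kdm6b, Setd1a and Kmt2b. Overlapping ranges do not compare 2 genes within a library, and the order of these neighbours was not tested. Men1 (35.5 to 54.0 RPKM) and Kdm6a (8.21 to 16.0 RPKM) overlapped with no other member.

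The genes also differed in how much they varied between libraries. Men1 varied least, with the highest library 1.52 times the lowest, followed by Kdm6a at 1.95 times. The COMPASS methyltransferases and Kat6a varied by 2.99 to 5.75 times, and Kdm6b by 4.80 times. The largest of these spreads, that of Kmt2b, rested on the first p53R248W/+ library, with 3.45 CPM (96 counts), which also held the lowest level of Kmt2a, Kmt2d, Kdm6a, Men1 and Setd1b.

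**Figure D1:**
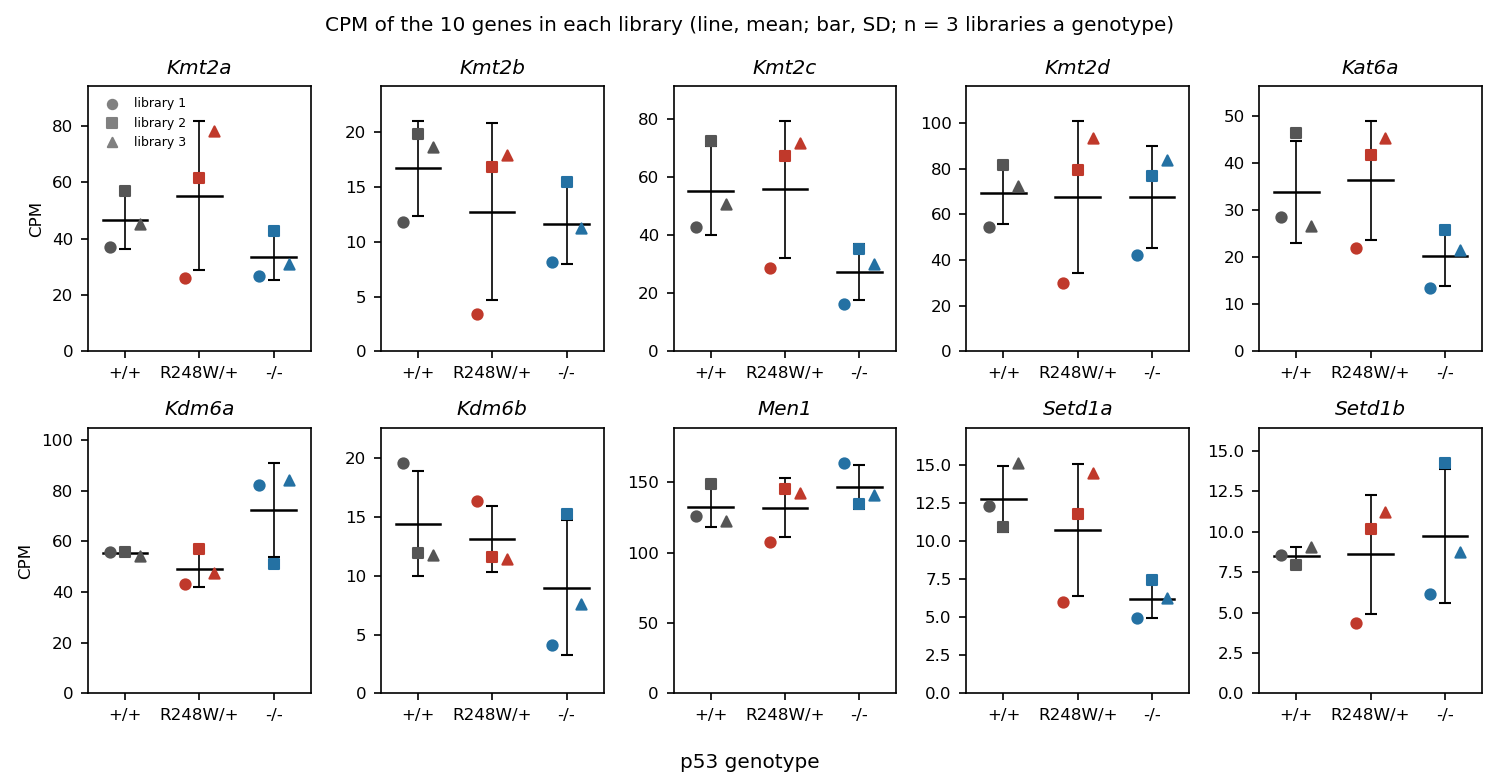
CPM (y axis, from 0) of each of the 10 genes in every library, by p53 genotype (x axis); circles, squares and triangles are libraries 1, 2 and 3, lines are means and bars are SD (n = 3). Kmt2c, Kat6a and Setd1a are the genes whose p53-/- libraries all lie below all p53+/+ libraries, while the first p53R248W/+ library is below its 2 partners for 9 genes, all but Kdm6b.

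None of the 10 genes passed the test between p53R248W/+ and p53+/+ LSKs. edgeR's quasi-likelihood test called 0 of 10, beside 0.00792% of all genes tested (1 of 12625). At an unadjusted p below 0.05 it also called 0 of 10 (0.958% of all genes), and DESeq2 and limma-voom each called 0 after adjustment (0.0475% and 0.00792% of all genes) and 0 before it. The libraries of the 2 genotypes overlapped for all 10 genes, beside 5.04% of all genes for which they did not. The log2 fold changes ran from -0.40 to 0.25 with a median of -0.03, beside a median of 0.01 over all genes.

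Kmt2a, the gene for MLL1, was at 37.1, 57.1 and 45.3 CPM in p53+/+ and at 26.2, 61.5 and 78.3 CPM in p53R248W/+ LSKs. The mutant libraries held both the lowest and the highest of these 6 values. The log2 fold change was 0.25 ± 0.34 (SE), with a 95% interval from -0.49 to 0.99, which is from 0.712 to 1.99 times the p53+/+ level. Kat6a, the gene for MOZ, was at 28.6, 46.3 and 26.6 CPM in p53+/+ and at 22.0, 41.8 and 45.4 CPM in p53R248W/+ LSKs, for a log2 fold change of 0.10 with an interval from -0.61 to 0.82. Kmt2b was at 11.8, 19.8 and 18.6 CPM in p53+/+ and at 3.45, 16.9 and 18.0 CPM in p53R248W/+ LSKs, where the first library alone lay below the p53+/+ range. Its log2 fold change of -0.40 (interval -1.46 to 0.67) became 0.05 without the first p53R248W/+ and the first p53-/- library. With the level of Y-linked transcripts as a covariate, that of Kmt2b was -1.14 (adjusted p = 0.648, edgeR), and those of Kmt2a, Kat6a and Kmt2c were -0.20, -0.22 and -0.39 in place of 0.25, 0.10 and 0.01, none called.

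Of the H3K27 demethylase genes, Kdm6a had a narrow interval and Kdm6b a wide one. Kdm6a was at 55.8, 55.8 and 54.4 CPM in p53+/+ and at 43.2, 57.1 and 47.4 CPM in p53R248W/+ LSKs, which gave a log2 fold change of -0.17 (interval -0.62 to 0.28). The second p53+/+ library held Y-linked transcripts and its partners did not, and Kdm6a was at nearly the same level in all 3. Kdm6b was at 19.6, 11.9 and 11.8 CPM in p53+/+ and at 16.4, 11.6 and 11.4 CPM in p53R248W/+ LSKs. In both genotypes the first library was the highest and the other 2 were close to each other, and the log2 fold change was -0.14 (interval -1.04 to 0.76). Men1, the gene for the scaffold protein menin, had the tightest interval of the 10, from -0.39 to 0.37 around -0.01, with levels of 132.7 ± 14.2 CPM in p53+/+ and 131.9 ± 20.9 in p53R248W/+ LSKs (SD, n = 3). For 8 of the 10 genes the intervals stayed within 1 on the log2 scale in both directions, and the lower bounds of Kmt2b and Kdm6b passed -1. The upper bounds for Kat6a and the 6 methyltransferase genes lay between 0.46 (Setd1a) and 0.99 (Kmt2a). The intervals of Kmt2c (0.01, from -0.76 to 0.79), Kmt2d (-0.04, from -0.85 to 0.76), Setd1a (-0.25, from -0.97 to 0.46) and Setd1b (0.01, from -0.83 to 0.85) lay within these limits.

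**Figure D2:**
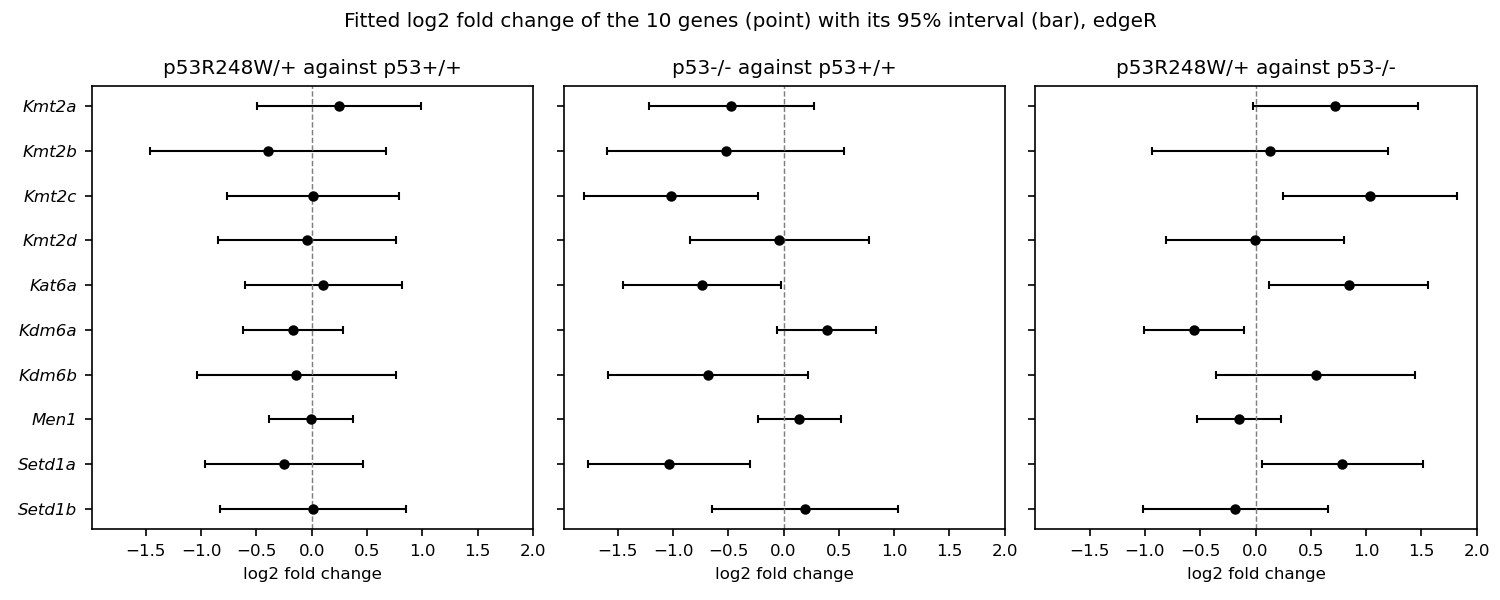
Fitted log2 fold change (x axis) of the 10 genes with its 95% interval in each of the 3 comparisons (edgeR, 9 libraries). All 10 intervals contain 0 for p53R248W/+ against p53+/+, 7 do for p53-/- against p53+/+ and 6 for p53R248W/+ against p53-/-, none of the genes outside being called after adjustment.

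Several of the methyltransferase genes and Kat6a had lower values in p53-/- than in p53+/+ LSKs, but none passed the adjusted test. The median log2 fold change of the 10 genes against p53+/+ was -0.50, beside -0.00 over all genes, and 7 of the 10 were below 0, beside 50.1% of all genes. edgeR called 0 of 10 after adjustment, beside 3.50% of all genes (442 of 12625). At an unadjusted p below 0.05 it called 3 of 10 (23.4% of all genes), namely Setd1a, Kmt2c and Kat6a. All 3 were lower (12.5% of all genes were called lower). The same 3 genes were those whose p53-/- libraries all lay below all p53+/+ libraries (16.0% of all genes). DESeq2 called 2 after adjustment, Setd1a (adjusted p = 0.0346) and Kmt2c (adjusted p = 0.0417), beside 12.3% of all genes, and limma-voom called 0 (2.35% of all genes), with 2 below 0.05 before adjustment. Counts were simulated for p53R248W/+ against p53+/+ only, with 200 changed genes. There DESeq2, edgeR and limma-voom recovered 187, 162 and 163 of them, with 33, 10 and 11 false calls. The changed genes came only from genes above the median level. Each was given a larger fold change than any of the 10 genes had in that comparison. Their recovery therefore does not measure how often changes of the size seen in the 10 genes would be called. With 0 changed genes, DESeq2 made 9 false calls and edgeR and limma-voom made 0. No simulated result covers the comparisons with p53-/- LSKs.

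Setd1a, whose product is a promoter H3K4 methyltransferase, was at 12.3, 10.9 and 15.2 CPM in p53+/+ and at 4.95, 7.45 and 6.29 CPM in p53-/- LSKs. The log2 fold change was -1.04 ± 0.33 (SE, interval -1.77 to -0.31, adjusted p = 0.0943, edgeR). Kmt2c, whose product acts at enhancers, was at 42.9, 72.6 and 50.7 CPM in p53+/+ and at 16.5, 35.1 and 30.2 CPM in p53-/- LSKs, for a log2 fold change of -1.02 ± 0.36 (SE, interval -1.81 to -0.23, adjusted p = 0.120, edgeR). Kat6a was at 13.4, 25.9 and 21.5 CPM in p53-/- LSKs, all below the lowest p53+/+ library at 26.6 CPM, and the fit gave a log2 fold change of -0.74 ± 0.33 (adjusted p = 0.203, edgeR). As a ratio, the gap between the lowest p53+/+ and the highest p53-/- library was narrow for Kat6a and Kmt2c and wider for Setd1a.

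Kmt2a was at 26.8, 42.6 and 31.0 CPM in p53-/- LSKs, of which the second lay within the p53+/+ range. Its log2 fold change was -0.47, with an interval from -1.22 to 0.27. Kmt2b was at 8.16, 15.5 and 11.2 CPM in p53-/- LSKs, which gave a log2 fold change of -0.53 (interval -1.60 to 0.54). Kmt2d, the longest transcript of the 10, showed no such shift, with 42.3, 77.0 and 83.6 CPM in p53-/- beside 54.4, 81.4 and 72.6 CPM in p53+/+ LSKs and a log2 fold change of -0.04 (interval -0.84 to 0.77). Setd1b, at 6.15, 14.3 and 8.74 CPM in p53-/- and 8.56, 7.92 and 9.03 CPM in p53+/+ LSKs, had a log2 fold change of 0.19 (interval -0.65 to 1.03), and all its p53+/+ values lay inside the p53-/- range.

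The 2 H3K27 demethylase genes had fold changes of opposite sign. Kdm6a was at 82.3, 51.1 and 84.1 CPM in p53-/- LSKs, with 2 libraries above and 1 below all p53+/+ libraries, and its log2 fold change was 0.39 (interval -0.06 to 0.84). Kdm6b was at 4.08, 15.3 and 7.56 CPM in p53-/- LSKs, with 2 libraries below and 1 within the p53+/+ range, and its log2 fold change was -0.68 (interval -1.59 to 0.22). The second p53-/- library was the exception for both genes. Over the 9 libraries Kdm6a and Kdm6b had a Pearson r of -0.81 on log2 CPM, which is given as a description of libraries that share genotype and processing. Men1 was at 164.1, 134.6 and 141.0 CPM in p53-/- LSKs, with a log2 fold change of 0.14 (interval -0.24 to 0.52).

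The comparison of p53R248W/+ with p53-/- LSKs shares the p53-/- libraries with the one before, so its values are given side by side and not as a second observation. edgeR called 0 of 10 genes, beside 3.44% of all genes (434 of 12625). At an unadjusted p below 0.05 it called 4 of 10, beside 21.0% of all genes: Kmt2c (log2 fold change 1.03, adjusted p = 0.129, edgeR), Kat6a (0.84, adjusted p = 0.171) and Setd1a (0.78, adjusted p = 0.205) with higher values in p53R248W/+ LSKs, and Kdm6a (-0.56, adjusted p = 0.150) with lower values. DESeq2 called Kmt2c (adjusted p = 0.0426, beside 10.5% of all genes), and limma-voom called 0 after adjustment (2.64% of all genes) and 3 before it. The libraries of the genotypes overlapped for all 10 genes (24.2% of all genes did not overlap). For Kmt2c, Kat6a and Setd1a the overlap came from the first p53R248W/+ library alone, which held 28.8, 22.0 and 6.00 CPM, each within the p53-/- range. Without that library, edgeR called 12.3% of all genes in place of 3.44%, and 4 of the 10 genes, all higher in p53R248W/+ LSKs: Kmt2c (log2 fold change 1.32, adjusted p = 0.0170), Kat6a (1.08, adjusted p = 0.0339), Kmt2a (1.03, adjusted p = 0.0200) and Setd1a (1.05, adjusted p = 0.0354). The second and the third p53R248W/+ libraries, which remained, held 69.8 and 184.5 CPM of Y-linked transcripts, beside at most 0.0491 CPM in p53-/- libraries. The level of long genes, described below, was also higher in both than in every p53-/- library. Genotype, Y-linked transcripts and the level of long genes are thus confounded in these 4 calls, and their parts were not tested. In the comparison of p53-/- with p53+/+ LSKs, leaving out the first p53R248W/+ library, which is no part of the contrast but of the estimate of spread, gave calls for Setd1a (adjusted p = 0.0294) and Kmt2c (adjusted p = 0.0345), with 11.7% of all genes called in place of 3.50%.

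The level of most of these genes moved between libraries together with that of long genes in general. Of the 10, 6 have a deposited length of at least 8000 bases: Kmt2d (19827 bases), Kmt2c (16820), Kmt2a (16439), Kat6a (9126), Setd1b (8858) and Kmt2b (8484). The 536 other genes of at least 8000 bases had a median deviation from their mean over libraries of -0.37 on the log2 scale in the first p53R248W/+, -0.39 in the first p53-/- and -0.24 in the second p53-/- library, and of 0.35, 0.29 and 0.40 in the second p53+/+ and the second and the third p53R248W/+ libraries. The log2 CPM of Kmt2c, Kat6a and Kmt2a had a Pearson r of 0.91, 0.89 and 0.89 with that deviation over 9 libraries, Setd1a and Kmt2d of 0.79 each, and Kmt2b of 0.76. Setd1b had 0.47, and Men1 (3040 bases), Kdm6b (6644) and Kdm6a (5265) had 0.26, 0.17 and -0.16. Setd1a has 5931 bases, fewer than Kdm6b, so the r values did not follow the order of length. The r values are descriptions over libraries that share depth and genotype. The second p53+/+ and the second and the third p53R248W/+ libraries, highest for long genes, are the same ones that held Y-linked transcripts. The fits with the Y-linked covariate therefore do not separate Y-linked transcripts from the level of long genes.

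Long genes also had lower values in p53-/- LSKs. Their median log2 fold change against p53+/+ was -0.34, with 383 of 536 (71.5%) below 0, and it was -0.50 for the 98 genes of at least 12000 bases, beside 0.06 for the 3766 genes below 2000 bases. In p53R248W/+ against p53+/+ LSKs the medians were -0.04 for the genes of at least 8000 bases and 0.08 for those below 2000. In a further fit, the trend on length of the log2 deviation from each gene's mean over libraries was taken out of each library. The median of the 10 genes in p53-/- against p53+/+ LSKs then went from -0.50 to -0.05. Setd1a had -0.86 (adjusted p = 0.0822, edgeR), Kmt2c -0.47 (adjusted p = 0.126) and Kat6a -0.38 (adjusted p = 0.273) after that step, and Kmt2a went from -0.47 to 0.10. Kmt2d, with 0.56 against p53+/+ (adjusted p = 0.0538, edgeR), then had the lower value in p53R248W/+ against p53-/- LSKs, by -0.62 on the log2 scale (adjusted p = 0.0452), the 1 call among the 10 genes under this setting (6.99% of all genes). The part of RNA quality or library making in the length trend was not tested.

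**Figure D3:**
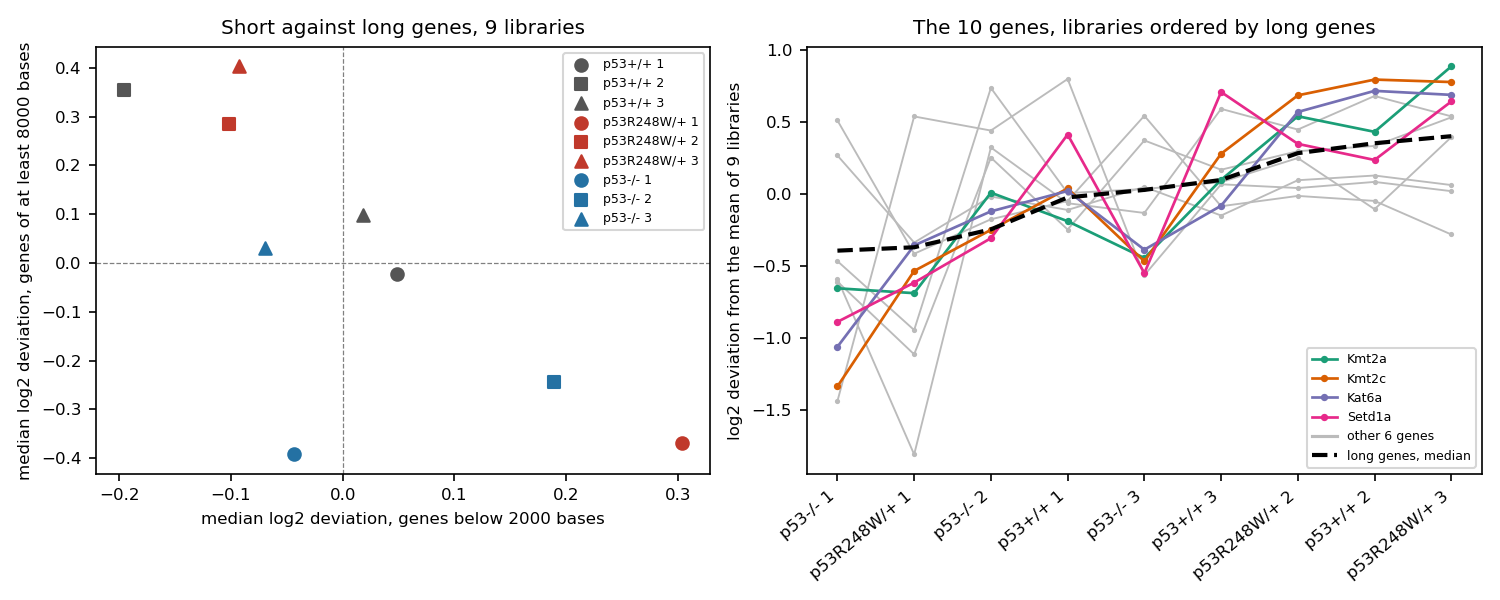
Left, median log2 deviation from the mean of 9 libraries of the 3766 genes below 2000 bases (x axis) and the 536 other genes of at least 8000 bases (y axis), 1 point a library. Right, log2 deviation of each of the 10 genes (y axis) with libraries ordered by the long-gene median (dashed), where Kmt2a, Kmt2c, Kat6a and Setd1a lie below 0 in the 2 libraries at the left and above 0 in the 3 at the right.

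**Figure D4:**
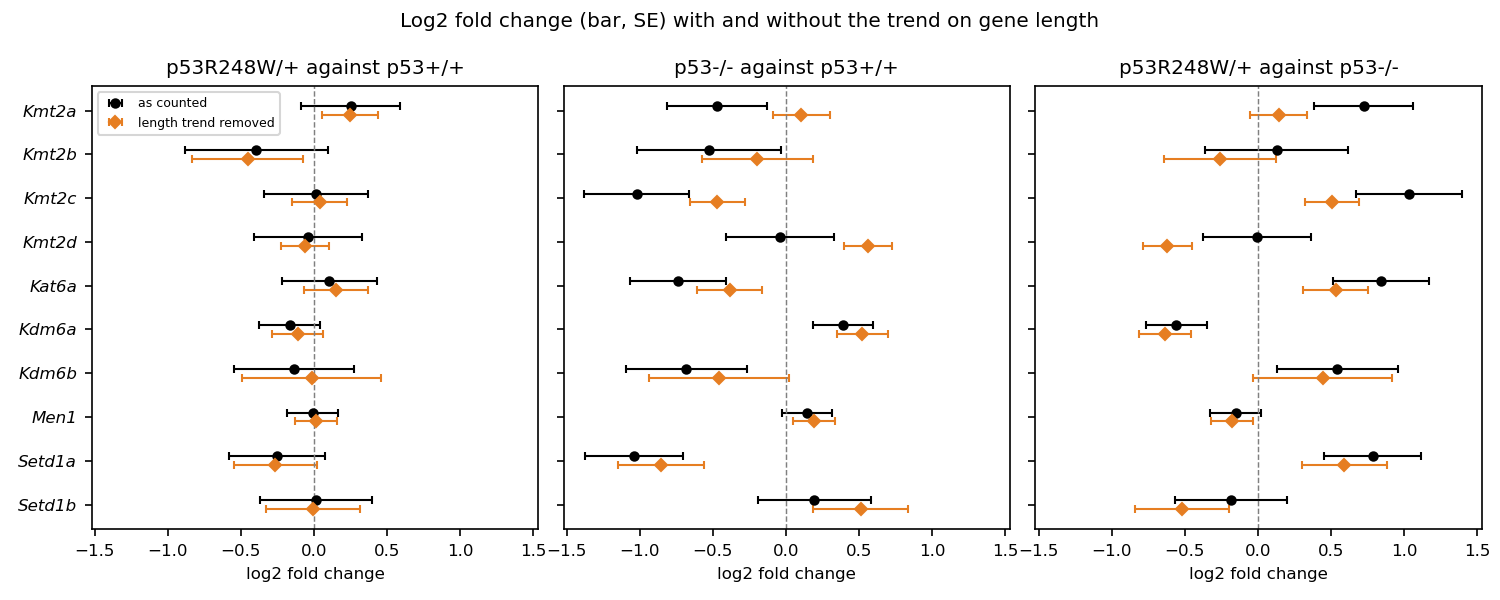
Log2 fold change (x axis, bars SE) of the 10 genes in each comparison as counted (black) and with the trend on gene length removed (orange). In p53-/- against p53+/+ LSKs the long genes Kmt2a, Kmt2c and Kmt2d move right by about the same amount, and Setd1a keeps most of its lower value.

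Several members moved together over the libraries, and genes outside the 10 moved with them as closely. Of the 45 pairs among the 10 genes, 12 had a Pearson r above 0.7 on log2 CPM over the 9 libraries, led by Kmt2c with Kat6a (0.98), Kmt2b with Kmt2d (0.91), and Kmt2a with Kmt2c (0.91) and Kat6a (0.91). All 12 pairs were among the methyltransferase genes and Kat6a, and none included Men1, Kdm6a or Kdm6b. The share of such pairs among genes of like length is not given here, so the likeness is not shown to be particular to these genes. Among 10407 other genes with a mean of at least 5 CPM, those most like Kmt2a were Ino80d (r = 0.97), Pcnt (0.96) and Zbtb12 (0.96). Those most like Kat6a were 2700049A03Rik (0.99), Ccdc125 (0.98) and Tnrc6b (0.97), and those most like Kdm6b were Ube2r2, Lgmn and Gadd45b (0.94 each).

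The COMPASS partner genes held 1 call among the 14 listed in each comparison with p53-/- LSKs (3.50% and 3.44% of all genes) and 0 in p53R248W/+ against p53+/+ LSKs. Psip1, whose product LEDGF tethers MLL1 and menin to chromatin, was at 145.4, 191.8 and 197.0 CPM in p53+/+, 124.9, 179.5 and 183.0 in p53R248W/+, and 74.3, 82.8 and 88.0 in p53-/- LSKs. All p53-/- libraries were below all others. Psip1 fell by 1.12 ± 0.20 on the log2 scale (SE) in p53-/- against p53+/+ LSKs (adjusted p = 0.0174, edgeR) and was higher by 0.99 in p53R248W/+ than in p53-/- LSKs (adjusted p = 0.0242). The first call was lost without any 1 p53-/- library or the second or the third p53+/+ library (adjusted p up to 0.0820), and the second without any 1 p53-/- library or the second or the third p53R248W/+ library (adjusted p up to 0.0961) and with the Y-linked covariate (adjusted p = 0.0834). The median log2 fold change of the 14 genes was -0.01, -0.12 and 0.11 in the 3 comparisons, in the order p53R248W/+ against p53+/+, p53-/- against p53+/+, and p53R248W/+ against p53-/-.

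The shared COMPASS core subunits had small differences. Wdr5 was at 145.0, 174.0 and 177.8 CPM in p53+/+ and 166.6, 139.6 and 171.4 in p53-/- LSKs (log2 fold change -0.06, interval -0.41 to 0.29), and Ash2l at 167.0, 169.8 and 188.1 CPM in p53+/+ and 138.6, 135.9 and 157.8 in p53-/- LSKs (-0.28, interval -0.61 to 0.05). Ash1l, a Trithorax H3K36 methyltransferase with a long transcript, was at 58.3, 86.4 and 67.3 CPM in p53+/+ and 33.6, 41.7 and 34.9 in p53-/- LSKs, without overlap, at a log2 fold change of -0.94 (adjusted p = 0.0660, edgeR), and it had -0.50 (adjusted p = 0.0709) with the length trend removed. The 8 genes of the MOZ and MORF complexes and the 7 H3K4 demethylase genes held 0 edgeR calls in any comparison by the fit used throughout. With the length trend removed, edgeR called 2 and 1 genes of the MOZ and MORF list and 1 and 1 of the demethylase list in p53-/- against p53+/+ and in p53R248W/+ against p53-/- LSKs (9.44% and 6.99% of all genes). DESeq2 called 1 gene of each list in p53-/- against p53+/+ LSKs and 0 in the other comparisons, and at an unadjusted p below 0.05 edgeR called 0, 2 and 2 genes of the MOZ and MORF list and 0, 2 and 1 of the demethylase list in the 3 comparisons. Kat6b, the relative of Kat6a, was at 12.8, 11.3 and 12.8 CPM in p53+/+ and 9.57, 5.01 and 8.30 in p53-/- LSKs, all lower, at a log2 fold change of -0.69 (interval -1.38 to 0.01, adjusted p = 0.220, edgeR).

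Among 11 genes of Polycomb repressive complex 2, which places the mark that Kdm6a and Kdm6b products remove, 1 was called in each comparison with p53-/- LSKs (3.50% and 3.44% of all genes). Ezh2, its catalytic subunit in dividing cells, was at 98.5, 111.1 and 133.8 CPM in p53+/+, 119.5, 130.4 and 129.2 in p53R248W/+, and 76.4, 68.0 and 60.4 in p53-/- LSKs. It fell by 0.74 ± 0.17 on the log2 scale (SE) in p53-/- against p53+/+ LSKs (adjusted p = 0.0377, edgeR), was higher by 0.89 in p53R248W/+ than in p53-/- LSKs (adjusted p = 0.0224), and had a log2 fold change of 0.14 (interval -0.22 to 0.51) in p53R248W/+ against p53+/+ LSKs. The call against p53+/+ was lost without any 1 library other than the first p53+/+ and the first p53R248W/+ (adjusted p up to 0.157), and the call against p53-/- without the second or the third p53R248W/+ or p53-/- library (adjusted p up to 0.0894) and with the Y-linked covariate (adjusted p = 0.0538). Ezh1, the other catalytic subunit, was at 53.4, 77.4 and 47.3 CPM in p53+/+ and 61.1, 55.7 and 82.8 in p53-/- LSKs (log2 fold change 0.16, interval -0.37 to 0.70). Beside these, 2 of 20 cell cycle genes were called lower in p53-/- than in p53+/+ LSKs (3.50% of all genes were called), Top2a (fell by 1.64, adjusted p = 0.0234, edgeR) and Mki67 (fell by 2.34, adjusted p = 0.0255), and the list summed to 3647.4 to 4650.1 CPM in p53+/+, 3771.9 to 4219.0 in p53R248W/+ and 2544.2 to 3729.3 in p53-/- libraries. Their part in the lower Ezh2 level was not tested.

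**Figure D5:**
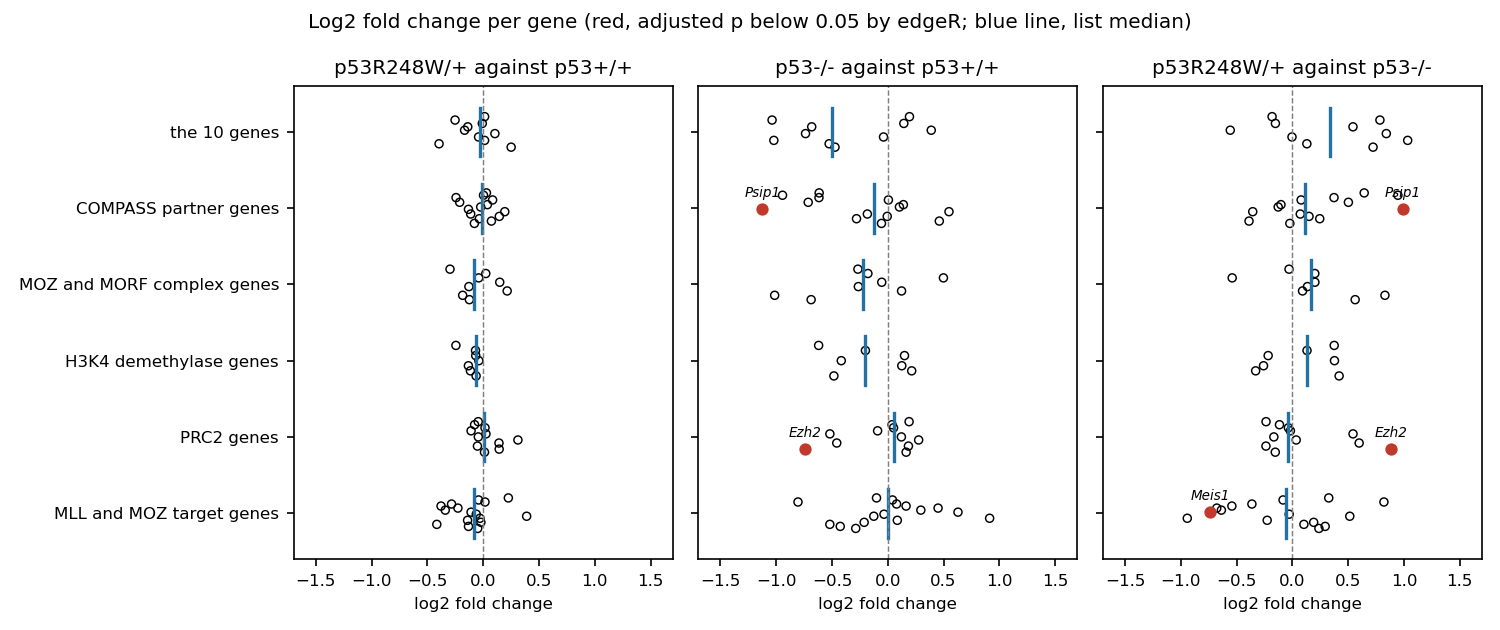
Log2 fold change (x axis) of the 10 genes and of each gene of 5 partner or target lists (rows) in the 3 comparisons; red points passed an adjusted p of 0.05 by edgeR, open circles did not, and blue lines are list medians. Psip1 and Ezh2 are red to the left in p53-/- against p53+/+ LSKs and to the right in p53R248W/+ against p53-/- LSKs, where Meis1 is red to the left.

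Of 16 genes that MLL1, menin or MOZ are known to keep active in hematopoietic cells, 0 were called by edgeR or limma-voom in p53-/- against p53+/+ LSKs (3.50% and 2.35% of all genes) and 3 by DESeq2 (12.3%), with 3 below an unadjusted p of 0.05 in edgeR (23.4%). Their median log2 fold change was 0.00 with 8 genes on each side of 0, beside -0.50 for the 10 genes. Meis1, a Hox cofactor of stem cells, was at 330.8, 303.0 and 249.0 CPM in p53+/+, 253.7, 253.3 and 311.5 in p53R248W/+, and 455.7, 432.1 and 477.7 in p53-/- LSKs, where all libraries were above all others. Its log2 fold change was 0.63 in p53-/- against p53+/+ LSKs (adjusted p = 0.0552, edgeR) and -0.74 in p53R248W/+ against p53-/- LSKs (adjusted p = 0.0366), a call lost without any 1 p53-/- library, the second p53+/+ or the second or the third p53R248W/+ library (adjusted p up to 0.146), in the fits without both first libraries (0.0635) or of only the 6 libraries compared (0.0611), and with the Y-linked covariate (0.0543). Hoxa9 was at 102.7, 87.3 and 94.5 CPM in p53+/+, 81.6, 77.8 and 98.8 in p53R248W/+, and 82.3, 122.6 and 97.0 in p53-/- LSKs, overlapping in every comparison. In p53R248W/+ against p53+/+ LSKs edgeR called 0 of the 16 genes (0 before adjustment, and 0 by DESeq2 and by limma-voom), and 13 of them had a log2 fold change below 0 (47.5% of all genes), with a median of -0.09.

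Other gene groups moved beside the 10 genes. Of 15 immediate early and heat shock genes, 4 were called lower in p53-/- than in p53+/+ LSKs (3.50% of all genes were called), Jun (fell by 1.77, adjusted p = 0.0174, edgeR), Fos (fell by 3.27, adjusted p = 0.0274), Hspa1a (fell by 5.70, adjusted p = 0.0393) and Zfp36 (fell by 2.00, adjusted p = 0.0427), and the list summed to 1140.2 to 1551.0 CPM in p53-/- beside 1941.9 to 7210.9 CPM in the other 6 libraries. Hlf, a stem cell transcription factor, was higher in p53-/- than in p53+/+ LSKs by 1.14 (adjusted p = 0.0242, edgeR), the 1 call among 9 LSK markers (3.50% of all genes were called). In p53R248W/+ against p53-/- LSKs the called genes of these lists included Fos (higher by 3.70), Hspa1a (5.32), Zfp36 (2.03), Jun (1.91), Mki67 (2.28) and Top2a (1.72), with adjusted p from 0.0106 to 0.0457, and the LSK markers Hlf (-1.41, adjusted p = 0.00885, edgeR) and Meis1. Of 7 neutrophil and monocyte genes tested, 1 was called there (3.44% of all genes were called), Mpo, which encodes myeloperoxidase, higher in p53R248W/+ LSKs by 1.76 (adjusted p = 0.00778, edgeR). In bulk cells, fewer cells of a type and less RNA per cell cannot be told apart. The part of these groups in the levels of the 10 genes was not tested.

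Kdm6b is a close neighbour of Trp53, with 159980 bases between them on chromosome 11. Of 43 genes tested within 500 kb of Trp53, 0 were called by edgeR in any of the 3 comparisons, and 0, 6 and 7 had an unadjusted p below 0.05 (0.958%, 23.4% and 21.0% of all genes). The 3 genes nearest to Kdm6b were Tmem88, Naa38 and Cyb5d1, with log2 fold changes of -1.09, 0.15 and -0.53 in p53-/- against p53+/+ LSKs, none called. For 5 of the 10 genes (Kmt2a, Kmt2b, Kmt2c, Kat6a and Kdm6b) RefSeq annotates a non-coding RNA or pseudogene that overlaps the gene, none of which has a row in the count table, and whether counting used strand is not given in the sources used here.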

How the data were processed

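RNA-seq data of LSKs were used, with 3 libraries for each of 3 genotypes. The H3K27me3 ChIP-seq samples were not analysed here. The table deposited by the authors holds raw, whole-number counts for 12647 genes, with a lowest total of 37 counts over the 9 libraries. The submitters' processing notes name STAR 2.5.2b, featureCounts with Subread 1.5.0, edgeR and mm10, with BWA and SICER, and do not tie each tool to a data type. The study's methods describe oligo(dT) selection and random priming, and the labels name a SMART-Seq kit. The same table holds the log2 fold changes and, for each, the p-value and false discovery rate that the authors computed between genotypes, which were not used, and gene lengths deposited by the authors, used for RPKM and the length trend.

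Genotypes were compared in edgeR 4.0.16 (R 4.3.3) by its quasi-likelihood test, after filterByExpr by genotype and TMM scaling (factors 0.935 to 1.04), in 1 model of the 9 libraries with a term per genotype. Adjustment was by Benjamini-Hochberg across 12625 genes, with a threshold of 0.05. CPM carry TMM factors, correlations use log2 CPM with a prior count of 2, and intervals are at 95%. The common biological coefficient of variation was 0.281. No pair of libraries held identical counts. The length trend was removed per library with a loess curve (span 0.5) on log2 length, used as an offset. Genes were placed with GENCODE M21 and RefSeq, in which 12393 genes matched by NCBI gene number. Other tools were DESeq2 1.42.0, limma 3.58.1 and Python 3.11.15. The tests of edgeR, DESeq2 and limma-voom were run on counts simulated for p53R248W/+ against p53+/+ without a length trend. DESeq2 made the most false calls there, and the other comparisons were not covered.

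The 10 genes and all lists were chosen with earlier results of these data known. The text names all 10 genes, genes of each list with an adjusted p below 0.05 (the 4 smallest where there are more, and with 1 gene not reported here), and Hoxa9, Meis1, Ezh1, Ezh2, Kat6b, Ash1l, Ash2l, Wdr5, Uty and Xist. It also names the 3 genes most like Kmt2a, Kat6a and Kdm6b and the 3 nearest to Kdm6b. Rbbp5, S100a8, S100a9, Ltf and Elane were added after their values were seen. Uty was at 23.4 CPM in the second p53+/+ and at 17.8 and 39.3 CPM in the second and the third p53R248W/+ libraries, and at most 0.0491 CPM elsewhere.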

Additional observations from a re-analysis of the deposited data

How the results depend on the processing

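Counts of called genes are given in the order p53-/- against p53+/+ and then p53R248W/+ against p53-/-. For p53R248W/+ against p53+/+ the 10 genes, the 14 COMPASS partner genes and the 16 MLL and MOZ target genes held 0 calls under all 20 alternatives. Over all genes, edgeR called 3.50% and 3.44%, DESeq2 12.3% and 10.5%, the replicate block 6.99% and 5.32%, the fit to only the 6 libraries compared 7.13% and 1.66%, the length trend removed 9.44% and 6.99%, the Y-linked covariate 3.60% and 1.29%, the fit without both first libraries 5.60% and 6.84%, and leaving out 1 library in turn 0.293% to 11.7% and 0.609% to 12.3%, the highest without the first p53R248W/+ library. Of the 10 genes, edgeR called 0 and 0, DESeq2 2 and 1, edgeR with the replicate block 1 and 1, the fit to only the 6 libraries compared 1 and 0, the fit with the length trend removed 0 and 1, and the fit without both the first p53R248W/+ and the first p53-/- library, an alternative chosen after seeing the data, 0 and 1. Leaving out 1 library in turn gave 0 to 2 and 0 to 4. Of the MLL and MOZ target genes, edgeR called 0 and 1, DESeq2 3 and 3, the replicate block 2 and 2, the 6 libraries compared 3 and 0, the length trend removed 3 and 3, the Y-linked covariate 1 and 0, the fit without both first libraries 2 and 2, and leaving out 1 library in turn 0 to 3 and 0 to 3. Of the COMPASS partner genes, edgeR called 1 and 1, DESeq2 2 and 2, the replicate block 2 and 2, the 6 libraries compared 2 and 1, the Y-linked covariate 1 and 0, the fit without both first libraries 2 and 2, and leaving out 1 library in turn 0 to 2 and 0 to 3.

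The replicate numbers were not used as pairs in the main fit, and whether they pair libraries is not stated. The correlation of deviations between same-numbered libraries was 0.04 to 0.54, -0.09 to 0.01 and -0.11 to 0.13 in the 3 comparisons. In p53R248W/+ and p53+/+ each of the 6 libraries correlated best with its own number, and libraries of the same number share a form of name in the titles. Both are hints of a shared origin that the labels do not state.

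Among single genes, 12 of 1140 values changed direction by more than 1 SE, and another 74 uncalled values crossed 0 by less. With the Y-linked covariate, the log2 fold changes for p53R248W/+ against p53+/+ were -0.20 (Kmt2a), -0.39 (Kmt2c), -0.22 (Kat6a) and -0.31 (Ash1l), with -1.14 in place of -0.40 for Kmt2b, and against p53-/- they were -0.087 (Kmt2a) and -1.06 (Kmt2b). With the length trend removed, Kmt2a was at 0.10 and Kmt2d at 0.56 in p53-/- against p53+/+. Without both first libraries, Kdm6b was at -0.0053 and Men1 at 0.056 in p53R248W/+ against p53-/-. Setd1b ranged from -0.19 to 0.46 in p53-/- against p53+/+ and from -0.45 to 0.20 in p53R248W/+ against p53-/- over the libraries left out in turn. The cause of these changes was not tested. With 3 libraries a genotype, the 95% intervals of the 10 genes had half-widths that only for Men1 and Kdm6a lay under 0.5 on the log2 scale.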
